A study of Mus musculus with 16 samples.

Results

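Small RNA libraries of mouse mesenchymal stem cells that lacked Dicer were compared with libraries of cells that kept it, 4 of the 16 libraries in the series. The knockout group (Dicer -/-, 2 libraries) and the wild-type group (Dicer f/f, that is, with an intact floxed gene, 2 libraries) were both of strain C57BL/6 and both transfected with mCherry, a red fluorescent protein. Members were chosen by these labels alone. The labels give neither the deleted part of the gene nor the way it was deleted. They also do not say whether a line is 1 clone or whether the replicates were separate cultures. A p-value therefore measures the spread between libraries, which may be technical. In the edgeR fits below that spread was estimated over all 16 libraries. Total RNA of 15 to 50 nt was cut from a gel and sequenced. The comparison addresses what is left of the small RNA of a cell when Dicer is missing.

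Most animal microRNAs (miRNAs) are made in 2 cuts. Drosha cuts a stem-loop precursor, the pre-miRNA, out of a long transcript in the nucleus, which sets the 5′ end of the 5p arm and the 3′ end of the 3p arm. Dicer then removes the loop in the cytoplasm, which sets the remaining ends, and 1 arm is loaded into an Argonaute protein, where the seed (bases 2 to 8) pairs with target mRNAs. Exceptions are known in mouse: miR-451a is cut by Argonaute 2 and needs no Dicer, whereas miR-320 and miR-484, whose precursors are capped, and mirtrons such as miR-877, which come from spliced introns, bypass Drosha and still need Dicer. Small nucleolar RNAs (snoRNAs), Y RNAs and mitochondrial RNAs are made without Dicer, although fragments of them appear in small RNA libraries.

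The mature sequences of 9 arms among the 31 that fell in the knockout are given first, chosen for abundance or a shared seed, to show which seeds were involved. Capitals mark the seed, and the sequences are those of RefSeq on GRCm38.p6.
miR-22-3p: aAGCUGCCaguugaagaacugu
miR-21a-5p: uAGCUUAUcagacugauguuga
miR-29a-3p: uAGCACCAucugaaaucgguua
miR-29b-3p: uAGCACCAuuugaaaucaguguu
let-7b-5p: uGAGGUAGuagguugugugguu
let-7c-5p: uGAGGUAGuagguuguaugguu
let-7f-5p: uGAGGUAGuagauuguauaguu
miR-125b-5p: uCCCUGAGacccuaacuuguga
miR-26a-5p: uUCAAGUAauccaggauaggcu

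Mir22 lies on chr11:75463716-75463810 (plus strand) and overlaps exons of its host transcript Mir22hg and of Tlcd2. Mir21a lies on chr11:86584067-86584158 (minus strand) and overlaps an exon of Vmp1. Of the 31 arms, called by the test described below, 26 were matched by name in the RefSeq table, and they carried 19 different seeds, of which 4 were shared by more than 1 arm. The let-7 seed was the most frequent, with 5 arms.

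A second set shows read forms that differed in frequency between wild type and knockout, as the reads gave them. Each 5p form is the one most read in replicate 2 of its genotype, except that the knockout form of let-7i-5p is from replicate 1 and had 0 reads in knockout replicate 2. In the knockout forms of 5p arms, capitals mark the bases past the 3′ end most used in wild type. In the precursor reads, capitals mark the part that is the 5p arm in wild type, and the rest runs through the loop into the other strand of the stem.
miR-21a-5p, wild type: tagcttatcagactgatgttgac
miR-21a-5p, knockout: tagcttatcagactgatgttgacT
miR-15b-5p, wild type: tagcagcacatcatggtttaca
miR-15b-5p, knockout: tagcagcacatcatggtttacaTACT
miR-532-5p, wild type: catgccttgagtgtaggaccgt
miR-532-5p, knockout: catgccttgagtgtaggaccgtTGAC
let-7i-5p, wild type: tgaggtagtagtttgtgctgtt
let-7i-5p, knockout replicate 1: tgaggtagtagtttgtgctgttGG
miR-26b precursor: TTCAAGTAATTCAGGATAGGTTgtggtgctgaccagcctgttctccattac
miR-196b precursor: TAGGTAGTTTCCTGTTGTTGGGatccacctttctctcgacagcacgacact

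Mir15b lies on chr3:69009772-69009835 (plus strand) in an intron of Smc4, and Mir532 on chrX:7248402-7248497 (minus strand) in an intron of Clcn5. Mirlet7i lies on chr10:122985640-122985724 (minus strand), with no host gene on its strand. Mir26b lies on chr1:74394310-74394394 (plus strand) in an intron of Ctdsp1, and Mir196b on chr6:52230081-52230165 (minus strand), overlapping an exon of Hoxa9. These positions are those of GENCODE on GRCm38.

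The libraries held 17298198 and 20502254 inserts of 15 nt or more in wild type and 10331036 and 15967421 in the knockout, in replicates 1 and 2. Every level below is a read count scaled to these inserts (CPM) or a percent of them. Reads are not separate molecules. Replicate 1 was read for 41 nt and replicate 2 for 51 nt, so inserts were seen whole up to 36 and 46 nt, and values are given within each replicate number because read length and replicate number cannot be told apart. Replicate 1 of the knockout stood apart: its 10 most read miRNA sequences held 91.3% of its miRNA reads, against 58.6% to 69.6% in the other 3 libraries. Reads of 20 nt or more from Dicer1, the targeted gene, numbered 0 and 1 in wild type and 1 and 1 in the knockout. They check nothing about the labels. The miRNAs listed as typical of fibroblasts and mesenchymal cells were abundant in wild type, with summed levels of 337589 and 297137 CPM. This list was drawn up with earlier results of these data known, so its level is no test of cell type. Of the sums, miR-22-3p held 180289 and 111207 CPM and miR-21a-5p 61379 and 40765 CPM. Other members were low, such as miR-10b-5p and miR-199b-5p at 2.49 CPM or less. Of the marker lists for other cell types, only some members had reads. Their summed levels in wild type replicates 1 and 2 were 377 and 223 CPM for blood cells (mostly miR-155-5p), 166 and 150.2 CPM for neurons, 0.231 and 111 CPM for muscle, 66.0 and 298 CPM for endothelium and 0 and 2.98 CPM for epithelium, and the liver marker miR-122 and the pluripotent markers were at 0 in all 4 libraries. In the knockout none of these sums passed 3.01 CPM. Since nearly all miRNAs were low there, such markers cannot check the cell type of the knockout, and fewer cells of a type and less RNA per cell cannot be told apart in bulk samples.

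Few miRNA reads were left without Dicer, and reads of other RNAs and of miRNA precursors made up more of the libraries. Mature-length miRNA reads (18 to 26 nt) made up 47.7% and 37.7% of inserts in wild type and 1.55% and 0.292% in the knockout. Both knockout libraries lay far below both wild-type libraries (wild type 42.7% ± 7.02, knockout 0.918% ± 0.886, SD, n = 2; exact permutation test, 2-sided, p = 0.333, which is the smallest p that 2 against 2 libraries allow). Within replicate numbers the knockout kept a fraction of 0.0324 of the wild-type share in replicate 1 and of 0.00773 in replicate 2.

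**Figure D1:**
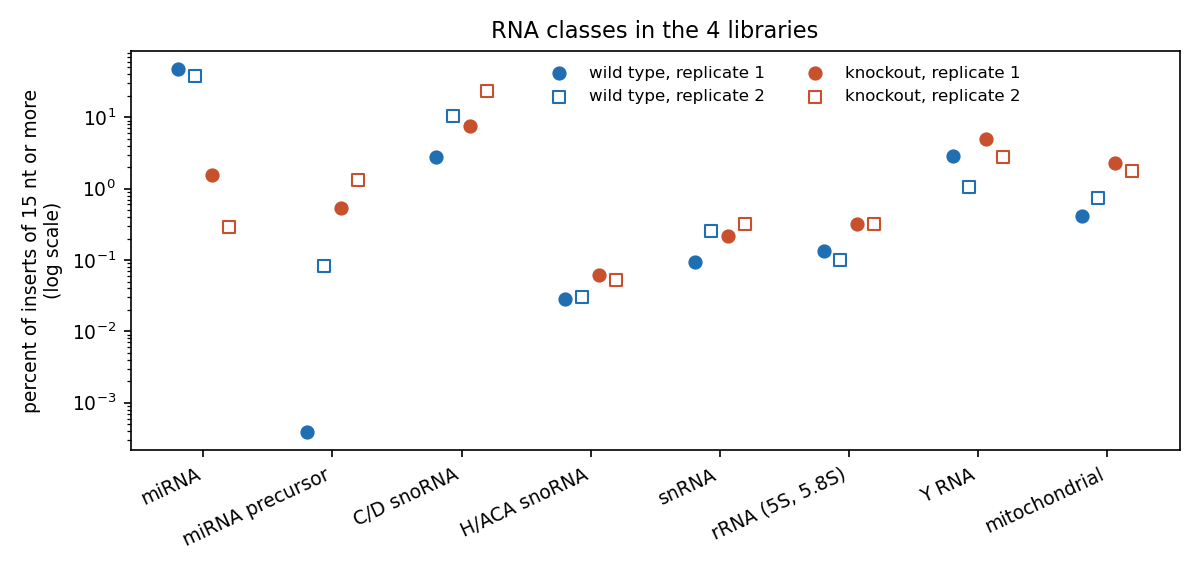
Percent of inserts of 15 nt or more that matched each RNA class (log scale), 1 point per library; filled circles are replicate 1 and open squares replicate 2. miRNA stood at 37.7% or more in both wild-type libraries and at 1.55% or less in both knockout libraries, and precursor reads were higher in the knockout.

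Because all shares add up, the inserts that were not miRNA went from 52.3% to 98.5% in replicate 1 and from 62.3% to 99.7% in replicate 2, a ratio of 1.88 and 1.60 that a class keeping its place among these inserts would share. Mitochondrial reads were higher by more than that, going from 0.414% and 0.731% to 2.26% and 1.78%, or 5.46-fold and 2.44-fold. As a share of inserts that are not miRNA they still went from 0.792% and 1.17% to 2.30% and 1.79%, with no overlap between groups on either scale (exact permutation p = 0.333 for each). C/D box snoRNAs, which guide 2′-O-methylation of ribosomal RNA, went from 2.78% and 10.3% to 7.46% and 23.6%. The groups overlapped (exact permutation p = 0.667), since replicate 2 was high in both, but the ratio within replicate numbers was 2.69 and 2.30, and 1.43 and 1.44 among inserts that are not miRNA.

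Y RNAs, short cytoplasmic RNAs bound by the Ro60 protein, stood at 2.85% and 1.05% in wild type, against 4.98% and 2.79% in the knockout. Among inserts that are not miRNA their share was 0.929 of the wild-type share in replicate 1 and 1.66 times it in replicate 2, so no direction held. Reads of the annotated ribosomal RNA genes, mostly 5S, went from 0.134% and 0.101% to 0.320% and 0.322%. H/ACA box snoRNAs, which guide pseudouridylation, went from 0.0283% and 0.0306% to 0.0616% and 0.0531%, close to the ratio of all inserts that are not miRNA (1.16-fold and 1.08-fold on that scale), and the direction turned when only inserts of 15 to 36 nt were counted. Small nuclear RNAs (snRNAs) went from 0.0945% and 0.255% to 0.214% and 0.324% of all inserts, with overlap. Inserts that matched no class grew from 46.0% and 49.5% to 82.3% and 68.8%. Cytoplasmic tRNA and the long ribosomal RNAs were not analysed here and would fall among them. Inserts taken to be 5′ adapter products were also part of the insert totals. They made up 1.55% and 5.93% of inserts in wild type and 2.61% and 7.63% in the knockout.

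Insert lengths were set apart between the groups as well. In wild type 48.0% and 35.7% of the inserts of 15 to 36 nt were 22 nt long, the usual length of a Dicer product. In the knockout 22 nt held 10.2% and 5.04%. The window of 21 to 23 nt went from 67.1% and 62.7% to 19.8% and 12.6% (wild type 64.9% ± 3.14, knockout 16.2% ± 5.06, SD, n = 2; exact permutation p = 0.333). Inserts of 27 to 36 nt made up 20.4% and 18.4% in wild type and 58.2% and 56.0% in the knockout. The groups did not overlap in either window. Inserts of 15 to 20 nt went from 2.70% and 9.62% to 6.51% and 20.6%, with overlap. These percents leave out longer inserts. Those of 15 to 36 nt were 81.1% and 73.3% of all inserts in wild type and 66.8% and 39.3% in the knockout. Of all inserts, the window of 21 to 23 nt went from 54.4% and 45.9% to 13.2% and 4.95%. The knockout profile had no single peak: in replicate 1 the lengths after 22 nt were 32 nt (8.64%) and 31 nt (8.33%), and in replicate 2 the most frequent were 34 nt (7.66%), 29 nt (7.28%) and 28 nt (6.72%).

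**Figure D2:**
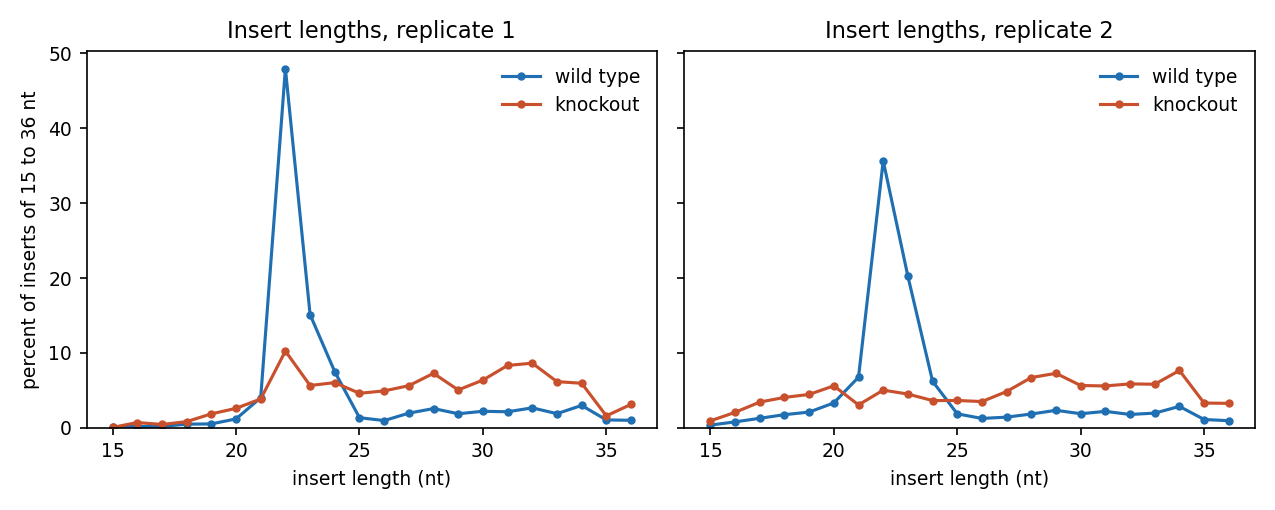
Percent of inserts of 15 to 36 nt at each length, for wild type and knockout in each replicate number. The wild-type lines peak at 22 nt (48.0% and 35.7%), and the knockout lines have no single peak, with 58.2% and 56.0% at 27 to 36 nt.

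Inserts of 21 to 23 nt in the rest of the RNA differed by class. Among inserts of 15 to 36 nt that matched no class, 34.4% and 32.4% in wild type and 20.6% and 13.8% in the knockout were of that length. Mitochondrial inserts of 21 to 23 nt went from 1477 and 1109.5 to 3294 and 1788 CPM, and Y RNA inserts from 1084 and 686 to 5281 and 1215 CPM. Both knockout libraries lay above both wild-type libraries for these 2 classes (exact permutation p = 0.333 for each). The same held for ribosomal RNA (0.231 and 83.6 CPM in wild type, 544 and 117 CPM in the knockout). The opposite held for H/ACA snoRNA, at 32.4 and 43.6 CPM in wild type and 0.678 and 10.6 CPM in the knockout, and for snRNA, at 207 and 89.1 CPM in wild type and 1.26 and 56.6 CPM in the knockout (exact permutation p = 0.333 for each). For C/D snoRNA the values were 2160.1 and 1107 CPM in wild type and 3414 and 723 CPM in the knockout, with opposite directions in the 2 replicate numbers. The mitochondrial ratio was 2.23 and 1.61, beside 1.88 and 1.60 for all inserts that are not miRNA. Among mitochondrial reads, the share of 21 to 23 nt fell from 35.6% and 15.2% to 14.5% and 10.02%, without overlap. Among Y RNA reads it went from 3.803% and 6.52% to 10.6% and 4.35%, in opposite directions. The higher CPM of mitochondrial inserts of this length thus came with a lower share of them within their class.

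The arms that fell kept between 0.129% and 5.33% of their wild-type level. Of 539 arms tested, 31 were lower in the knockout by edgeR's quasi-likelihood test (Benjamini-Hochberg adjusted p under 0.05, 5.75% of the arms) and 0 were higher (0%); 96 arms had an unadjusted p under 0.05, of which 2 were higher. The 31 were 19 5p and 12 3p arms, all above 676 CPM on average in wild type, and both knockout libraries lay below both wild-type libraries for each. That separation held for 121 arms (22.4%), and the opposite one for 1, miR-3470b-5p, which was at 0 in wild type, against 0.0968 and 3.57 CPM in the knockout. The median log2 change over the arms tested was -6.95. The 31 arms kept a median of 0.522% of the wild-type CPM in replicate 1 and 0.500% in replicate 2. Leaving out wild type replicate 1 gave 20 calls and leaving out wild type replicate 2 gave 31. The count was 11 when knockout replicate 1 was left out and 8 when knockout replicate 2 was, all of them lower in the knockout. With replicate number, and so read length, as a block in the fit, 52 were called, all lower. With scalings that centre the arms, 13 were called higher by DESeq2 and 4 by TMM.

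**Figure D3:**
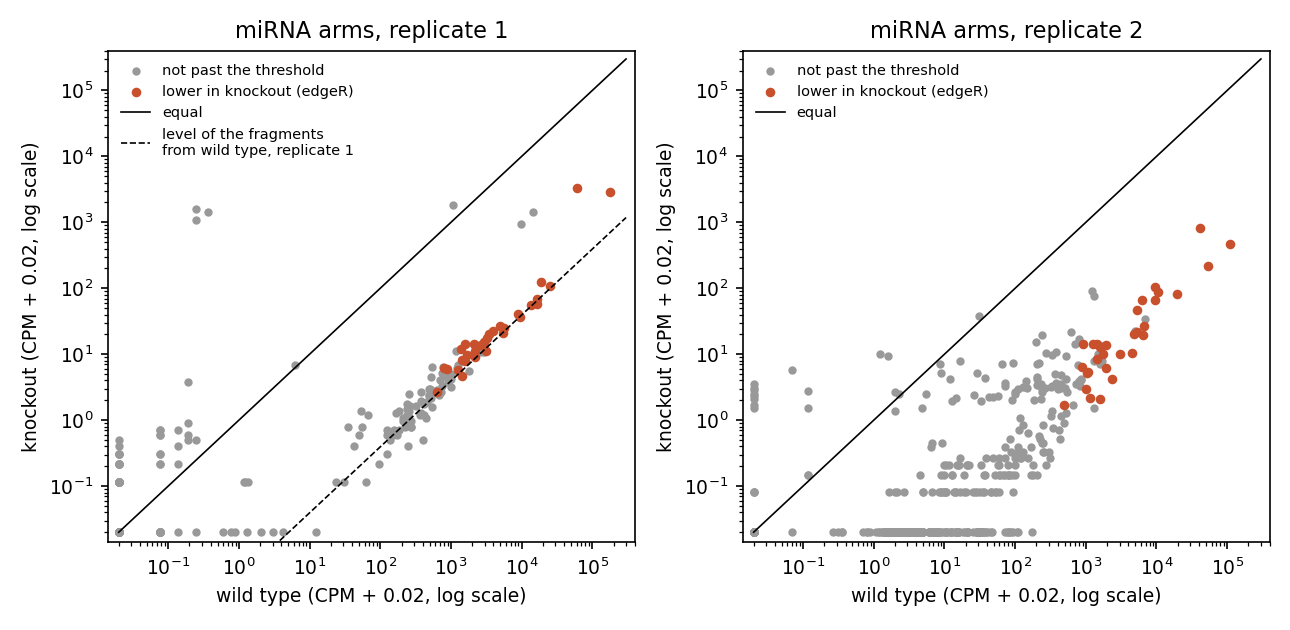
Knockout against wild-type level of each tested miRNA arm (CPM plus 0.02, both axes on log scales), 1 panel per replicate number; orange points are the 31 arms lower in the knockout by edgeR. The dashed line in replicate 1 marks 0.394% of the wild-type CPM, the level of fragments described in the text; of the 102 arms with 2000 reads in wild type replicate 1, 90 lie at or under 2 times that level, and many less abundant arms are at 0.

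miR-22-3p, the most abundant arm of these cells, stood at 180289 and 111207 CPM in wild type, against 2869.6 and 466 CPM in the knockout. It lost more reads than any other arm, with a log2 change of -6.45 (SE 0.74, edgeR adjusted p = 2.06e-15). miR-29b-3p, known for its collagen mRNA targets, went from 18898 and 53227 CPM to 124 and 219 CPM (log2 change -7.71, SE 1.08, edgeR adjusted p = 2.74e-10). let-7c-5p, of a family known to promote differentiation, went from 25206 and 9584 CPM to 108 and 104 CPM (log2 change -7.36, SE 1.37, edgeR adjusted p = 1.34e-05). For all 3 arms both knockout libraries lay far below both wild-type libraries.

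The next arms by wild-type level behaved alike. miR-125b-5p went from 16628 and 9398 CPM to 58.5 and 65.8 CPM, and miR-26a-5p from 13491 and 6718 CPM to 54.9 and 26.99 CPM. miR-24-3p went from 3222 and 19649 CPM to 17.5 and 82.9 CPM, and let-7b-5p from 16539 and 4809.7 CPM to 68.0 and 20.04 CPM. miR-99b-5p and miR-31-5p fell as well, the former to 0.455% and 0.411% of its wild-type level and the latter to 0.916% and 0.853%. For all of these arms knockout and wild type were separate, and the edgeR adjusted p lay between 3.87e-05 (miR-24-3p) and 0.000927 (miR-31-5p).

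Among the 31 called arms, the largest falls by fold were those of miR-193a-3p (633 and 1158 CPM to 2.61 and 2.13 CPM, log2 change -8.56, SE 2.71, edgeR adjusted p = 0.0317) and miR-222-3p (1263 and 2353 CPM to 5.71 and 4.26 CPM, log2 change -8.50, SE 2.56, adjusted p = 0.0217). The next was miR-24-5p with a log2 change of -8.38. It was followed by miR-214-3p at -8.11, miR-151-5p at -8.10 and miR-143-3p at -8.05. miR-214 and miR-143 are typical of mesenchymal cells. No called arm was as little reduced as miR-21a-5p, an arm known to be raised in many tumours and in fibrosis. It stood at 61379 and 40765 CPM in wild type, against 3274 and 817 CPM in the knockout, a log2 change of -4.64 (SE 0.90, edgeR adjusted p = 3.87e-05), and kept 5.33% and 2.00% of its level.

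By list, 15 of 64 tested arms of the fibroblast and mesenchymal miRNAs fell and 0 rose, where 5.75% of all arms tested fell, with a median log2 change of -7.76 beside -6.95 over all arms. Of the let-7 family (let-7a to let-7i and miR-98), 6 of 18 tested arms fell and 0 rose, with a median of -7.62; 12 were lower in both replicate numbers and 6 were mixed. Of the miR-17-92 cluster, whose members promote proliferation, and its paralogs, 1 of 18 tested arms fell (miR-92-3p, 793 and 1017 CPM to 6.10 and 2.94 CPM), a share near that over all arms, and the median was -7.07. These arms were less abundant: their summed level in wild type was 2763 and 3416 CPM. All 31 called arms were among the 62 tested arms with 500 CPM or more on average in wild type. Membership of a list and abundance therefore cannot be told apart in these counts. The lists were drawn up with earlier results of these data known.

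The arms known to be made without Drosha or without Dicer did not stand out by a higher level. miR-320-3p went from 1254 and 333 CPM to 6.78 and 3.32 CPM, or 0.540% and 0.997% of its wild-type level (edgeR adjusted p = 0.107). miR-484-5p went from 240.03 and 241 CPM to 1.45 and 0.438 CPM (edgeR adjusted p = 0.190). Both knockout libraries lay below both wild-type libraries for these 2 arms, although neither passed the threshold. miR-877-5p had 287 reads in wild type replicate 2, was at 0 in both replicate 1 libraries, and had 1 read in knockout replicate 2. miR-451a-5p, the arm that needs no Dicer, was at 0 in both wild-type libraries and in knockout replicate 1, and stood at 2.82 CPM in knockout replicate 2, where all 45 reads were 1 sequence of 26 nt. Of 14 tested arms of this list 0 were called.

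What remained of the miRNA reads differed between the 2 knockout libraries. In replicate 1 most arms stood at nearly the same small percent of wild type. A set of 144 inserts that matched no class, reached 2000 reads in wild type replicate 1 and were absent from all replicate 2 libraries served for comparison. All 144 were present in knockout replicate 1, with 1192 reads against 507147, or 0.235%. Of the 102 arms that reached 2000 reads in that wild-type library, 90 lay at or under 0.470%, which is 2 times that level, and their median over all 102 was 0.285% of the reads. Whether these reads came from the knockout cells was not tested.

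The 12 arms above that level were let-7i-5p, miR-125a-5p, miR-181a-5p, miR-183-5p, miR-196a-5p, miR-21a-5p, miR-22-3p, miR-27b-3p, miR-28a-5p, miR-31-5p, miR-378a-3p and miR-423-3p. Several arms were high in knockout replicate 1 through 1 sequence each. miR-10b-5p stood at 1412 CPM there, with 14579 reads of a single form, against 0.347 and 2.49 CPM in wild type and 0 in knockout replicate 2. miR-20a-3p stood at 1571 CPM there against 0.231 and 42.2 CPM in wild type and 2.25 CPM in knockout replicate 2. miR-350-5p stood at 1092 CPM against 0.231 and 0.878 CPM in wild type and 0 in knockout replicate 2. These 3 arms were at most 42.2 CPM elsewhere. Together with miR-181a-5p (1078, 410, 1821 and 2.94 CPM in the order wild type 1 and 2, knockout 1 and 2) they were high in 1 knockout library only, and none passed the threshold.

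let-7i-5p stood at 14605 and 4905 CPM in wild type, against 1440.03 and 22.1 CPM in the knockout. In knockout replicate 1, 95.3% of its reads were 1 form of 24 nt with 14178 reads, which had 4 reads in wild type replicate 1 and 0 in replicate 2. miR-125a-5p stood at 9754 and 6820 CPM in wild type, against 955 and 34.4 CPM in the knockout, with 99.3% of the replicate 1 reads in 1 form. In replicate 2, the 127 arms with 2000 or more wild-type reads kept a median of 0.393% of those reads (quartiles 0.191% and 0.855%), and 13 kept over 2%, up to 6.28% for miR-106b-5p.

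Most 5p reads that remained kept their 5′ ends, and a smaller pooled share had the usual 3′ ends. miRNA reads of 24 to 26 nt made up 6.61% and 5.40% of miRNA reads in wild type and 43.7% and 43.7% in the knockout (exact permutation p = 0.333). Over single-copy hairpins, 98.9% and 98.6% of 5p reads in wild type and 99.9% and 96.8% in the knockout began at the usual 5′ end. Their 3′ ends differed: 76.5% and 67.4% lay at the usual position in wild type against 34.3% and 24.2% in the knockout. Reads that ran 2 nt or more past it, toward the loop, went from 0.321% and 0.607% to 28.996% and 23.1%, with no overlap (exact permutation p = 0.333). These pooled values rest on few abundant forms, and without let-7i the value in knockout replicate 1 was 15.5%. Over the 17 5p arms for which each of the 4 libraries held at least 50 reads, the median share past the end was 0 in all 4 libraries. Their median share at the usual 3′ end was 81.4% and 75.8% in wild type and 78.3% and 59.7% in the knockout, with overlap (exact permutation p = 0.667). The usual ends were those most used in these same wild-type libraries, so a lower share at them in the knockout is partly built in. The permutation p-values for ends share this limit.

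**Figure D4:**
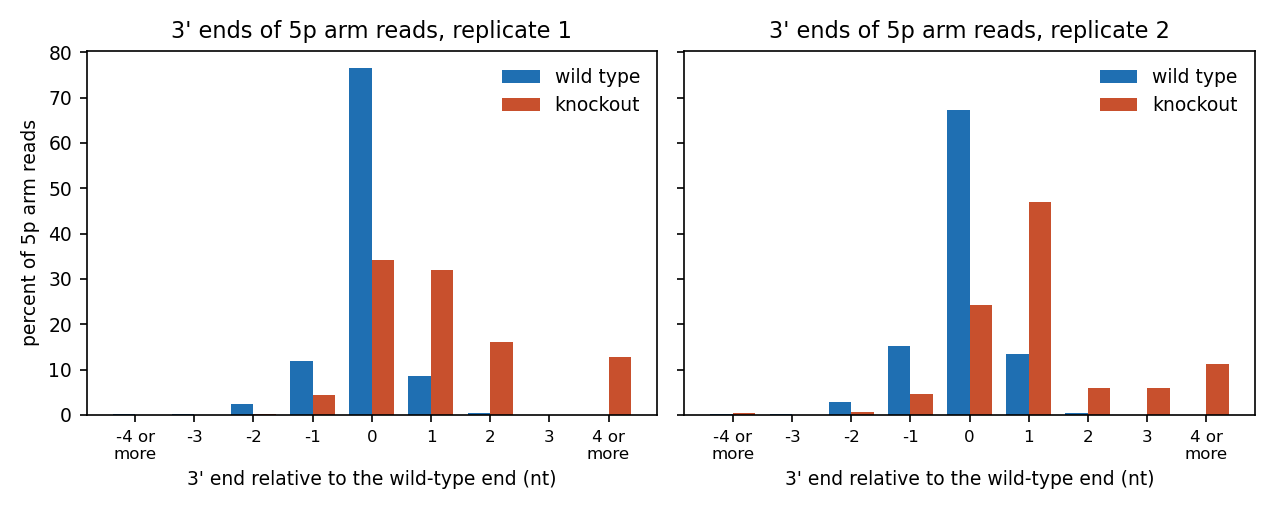
Percent of 5p arm reads by the position of their 3′ end relative to the end most used in wild type (0), for wild type and knockout in each replicate number; positive values run toward the loop. Reads 2 nt or more past the end made up 0.607% or less in wild type and 23.1% or more in the knockout.

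In replicate 2 the difference was spread over many hairpins. Of 41 5p arms with 50 or more reads in both replicate 2 libraries, 24 had a higher share of reads past the usual 3′ end in the knockout, 7 a lower one and the rest an equal one. The median share was 0.000926% in wild type and 29.2% in the knockout. For miR-15b-5p, which restrains the cell cycle, the share went from 0.2% to 84.1%, and the 26 nt form printed above had 41 reads in wild type and 1180 in the knockout. For miR-106b-5p it went from 1.7% to 83.5%, for miR-100-5p from 0% to 64.6% and for miR-26b-5p from 1.0% to 67.6%. let-7b, let-7d, miR-30a, miR-30d, miR-30e and miR-99b were among the arms with no such reads in the knockout.

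For miR-532-5p the forms differed and the summed level was not lower in the knockout. It was the only arm of 10 CPM or more on average that was higher in the knockout in both replicate numbers, at 0 and 30.8 CPM in wild type and 0.387 and 37.9 CPM in the knockout, and it did not pass the threshold. In wild type replicate 2, 88.4% of its reads were the 22 nt form, with 559 reads. In knockout replicate 2 that form had 1 read, and the 26 nt form, at 0 in wild type, held 36.5% of the reads. For miR-21a-5p the 24 nt form printed above, 1 base longer than the form most used in wild type, had 171800 and 177326 reads in wild type and 27989 and 9702 in the knockout. The 23 nt form went from 678473 and 481149 reads to 2189 and 1478, so the order of these forms was inverted without Dicer.

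At the 5′ end of 3p arms, which Dicer also sets, a difference was seen less widely, and their 3′ ends differed too. Reads that began 2 nt or more before the usual 5′ end, in the loop, were 0.000706% and 0.0441% of 3p reads in wild type and 34.1% and 5.73% in the knockout. The high value in replicate 1 came with miR-20a-3p, of which 1 form had 16229 reads. In replicate 2, 23 3p arms had 50 or more reads in both libraries. Of these, 9 had a higher share in the knockout and 2 a lower one, with a median of 0% in both. The 3′ end of 3p reads, which Drosha sets, moved as well. Reads ending 2 nt or more short of it went from 0.443% and 1.14% to 34.2% and 6.67%. Of the 23 arms in replicate 2, 10 had a higher share of such reads in the knockout and 10 a lower one. Whether the same reads were moved at both ends was not tested.

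Hairpin reads longer than mature miRNAs were more frequent without Dicer, though not all of them need span the loop. Hairpin reads longer than 26 nt or without adapter, here called precursor reads, made up 0.000387% and 0.0824% of inserts in wild type (67 and 16900 reads) and 0.542% and 1.33% in the knockout. Both knockout libraries were above both wild-type libraries (wild type 0.0414% ± 0.0580, knockout 0.938% ± 0.560, SD, n = 2; exact permutation p = 0.333). For every 100 mature-length miRNA reads there were 0.000812 and 0.218 precursor reads in wild type and 35.1 and 457 in the knockout. Of those in hairpins with a known 5p start, 99.9% and 95.6% in the knockout began at the 5′ end of the 5p arm, against 89.1% and 88.7% in wild type. These shares rest on 51050 and 168718 reads in the knockout and on only 46 and 13696 in wild type. In the knockout 54.3% and 88.0% showed no adapter and were therefore longer than the read could show whole, so their 3′ ends are unknown. The gel was cut at 15 to 50 nt, so how much of the longer precursors was recovered is unknown.

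**Figure D5:**
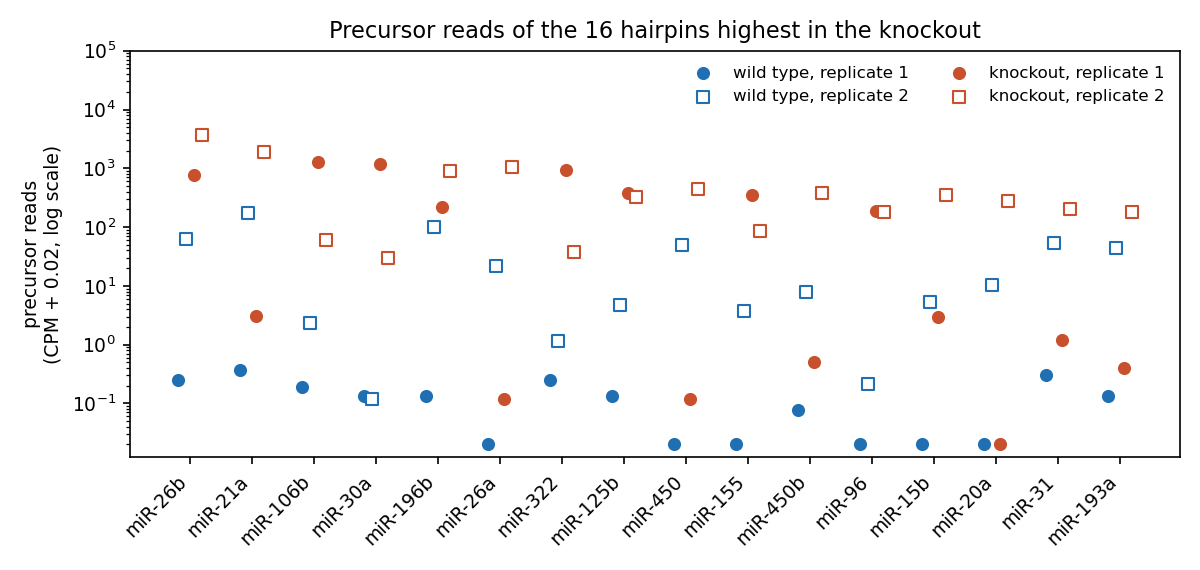
Precursor reads (CPM plus 0.02, log scale) of the 16 hairpins with the highest knockout mean, 1 point per library; filled circles are replicate 1 and open squares replicate 2. In replicate 2 the knockout lies above wild type for all 16, and in replicate 1 for 15.

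Among 241 hairpins tested for precursor reads, 0 passed edgeR's adjusted p under 0.05 (0%), 2 had an unadjusted p under 0.05, and DESeq2 called 0 as well. By direction alone, 25 were higher and 0 lower in the knockout in both replicate numbers. Both knockout libraries lay above both wild-type libraries for 14 (5.81%) and below for 0. In replicate 2, 144 hairpins were higher and 19 lower in the knockout, and in replicate 1, 26 were higher and 9 lower.

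miR-26b had the highest precursor level. Its precursor reads stood at 0.231 and 63.2 CPM in wild type, against 782 and 3693 CPM in the knockout (edgeR adjusted p = 0.799). Its 5p arm moved the other way and was among the 31 arms that fell (edgeR adjusted p = 0.0460). In replicate 2, precursor reads were 0.0696 times as many as reads of its 2 arms in wild type and 567 times as many in the knockout. The 51 nt read printed above, which spans the 5p arm and the loop, had 1296 reads in wild type replicate 2 and 58755 in knockout replicate 2.

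miR-196b, encoded within the Hoxa cluster, stood at 0.116 and 99.99 CPM in precursor reads in wild type, against 219 and 895 CPM in the knockout. miR-125b precursor reads stood at 0.116 and 4.68 CPM in wild type, against 381 and 319 CPM in the knockout, and those of miR-96 at 0 and 0.195 CPM against 189.9 and 182 CPM. For these 3 hairpins both knockout libraries were above both wild-type libraries. miR-21a precursor reads stood at 0.347 and 173 CPM in wild type and 3.001 and 1916 CPM in the knockout, and those of miR-26a at 0 and 21.9 CPM against 0.0968 and 1066 CPM, so that the difference was in replicate 2 for both.

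In knockout replicate 1 each leading precursor rested on 1 sequence. miR-106b (1297 CPM), miR-30a (1168 CPM), miR-322 (930.1 CPM) and miR-26b (782 CPM) had 99.99% or more of their precursor reads in a single insert. In replicate 2 miR-106b, miR-30a and miR-322 stood at 59.7, 29.3 and 37.5 CPM in the knockout and at 2.29, 0.0976 and 1.12 CPM in wild type. The direction was thus the same in both replicate numbers and the sizes were far apart.

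Fragments of RNAs that Dicer does not make remained. The 4 sequences below are the most read form of each RNA in knockout replicate 2, and are shown because each was also read in wild type replicate 2. The pair of 51 nt cannot occur in replicate 1, where reads ended at 41 nt.
Rny1 fragment: cttctcactactgcacttgactagtctt
Gm25789 fragment: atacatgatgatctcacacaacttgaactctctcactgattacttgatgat
Snord2 fragment: ctgaaatgaagagaatactcttgctgatc
mt-Ts2 fragment: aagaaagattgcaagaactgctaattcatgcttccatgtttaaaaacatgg

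Rny1 lies on chr6:47788069-47788180 (minus strand), and the fragment is near the 3′ end of its 112 nt. Gm25789, a snoRNA with C/D box motifs, lies on chr1:161038308-161038383 (plus strand) within Gas5, a host gene of several snoRNAs, Snord2 on chr16:23108953-23109021 (plus strand) within Eif4a2, and mt-Ts2, a mitochondrial serine tRNA, on chrM:11613-11671 (plus strand). The Rny1 fragment had 147880 and 45731 reads in wild type and 120669 and 114332 in the knockout.

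Of 414 genes of these other classes, 0 passed edgeR's adjusted p under 0.05 (0%), 1 had an unadjusted p under 0.05, and DESeq2 called 0, with 20 at an unadjusted p under 0.05. Leaving out wild type replicate 2 gave 3 calls, all higher in the knockout. The spread was wide, with a common biological coefficient of variation of 2.04. Both knockout libraries lay above both wild-type libraries for 44 genes (10.6%) and below for 2. Within replicate numbers 102 genes were higher in both, 5 lower in both and 307 mixed.

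C/D snoRNAs made up 58 of the 102 genes higher in both replicate numbers. Of the other C/D genes tested, 2 were lower in both and 83 mixed, beside 5 and 307 of all 414 genes. Their median log2 change was 1.12 beside 0.76 over all genes tested. The median ratio of C/D genes differed by replicate number. It was 0.506 in replicate 1, over the 44 genes for which it was taken, and 2.04 in replicate 2. By direction alone, more C/D genes were higher than lower in replicate 1 too. Gm25789 stood at 4933 and 39610 CPM in wild type, against 8812 and 81130 CPM in the knockout, a ratio of 1.79 and 2.05 within replicate numbers. Gm26202 had 428 and 24922 CPM in wild type and 1153 and 70148 CPM in the knockout, and Gm23212, also within Gas5, 3746 and 12126 CPM against 11826 and 24793 CPM. The libraries ordered by replicate number first and by genotype second. Inserts of 37 nt or more held 41.4% and 82.0% of C/D snoRNA reads in wild type and 42.5% and 87.9% in the knockout, a difference between replicate numbers larger than that between genotypes.

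For the Y RNAs, Rny1 stood at 28116 and 10079 CPM in wild type, against 49707 and 26638 CPM in the knockout, a ratio of 1.77 and 2.64. Fragments from its last 35 nt held 90.3% and 91.8% of its reads in wild type and 79.3% and 91.2% in the knockout. Rny3 had 394 and 441 CPM in wild type and 123 and 1287 CPM in the knockout, with opposite directions in the 2 replicate numbers. Y RNA fragments of 27 to 29 nt made up 63.0% and 58.0% in wild type and 47.7% and 62.8% in the knockout. In replicate 1 those of 30 to 36 nt went from 10.3% to 23.2% and in replicate 2 from 8.61% to 8.36%. The vault RNA Vaultrc5 stood at 259 and 117 CPM against 58.7 and 408 CPM, again in opposite directions.

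Among 37 mitochondrial genes 18 were higher and 1 lower in the knockout in both replicate numbers. For 9 of them both knockout libraries lay above both wild-type libraries. Over all 414 genes the counts were 102 higher, 5 lower and 44 above. Of the 37, 13 were at 0 in both replicate 1 libraries and so could not count as higher in both, beside 246 of all 414. The transfer RNAs together stood at 3326 and 4255 CPM in wild type, against 12478 and 11613 CPM in the knockout, and the 2 ribosomal RNAs at 805 and 2051 CPM against 9799.5 and 4571 CPM. Both sums were apart between groups (exact permutation p = 0.333), and with mitochondrial mRNAs (13.6 and 1002.04 CPM against 362 and 1653 CPM) the groups overlapped. mt-Rnr2, the large ribosomal RNA, stood at 803 and 1559.9 CPM in wild type, against 8780.05 and 2961 CPM in the knockout. In knockout replicate 1 only 66 distinct inserts carried its reads, against 718 in knockout replicate 2. mt-Ts2 had 450.3 and 1605 CPM in wild type and 2235 and 3924 CPM in the knockout, and mt-Te, a glutamate tRNA, 634 and 229 CPM against 2055 and 1239.8 CPM.

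The remaining classes had few genes with reads in every library. 5S ribosomal RNA stood at 1334 and 1006 CPM in wild type, against 3183 and 3199 CPM in the knockout, with both knockout libraries above. Of 41 snRNA genes tested, 5 were higher in both replicate numbers and 0 lower, beside 102 and 5 of all 414 genes. Of the 41, 34 were at 0 in both replicate 1 libraries. Rnu7, which acts in histone mRNA processing, stood at 207 and 1857 CPM against 1.45 and 2073 CPM, and Rnu11, of the minor spliceosome, at 0.116 and 14.2 CPM against 802 and 37.2 CPM, where knockout replicate 1 held a single insert. Rnu5g, of the spliceosome, stood at 139 and 67.5 CPM against 992 and 158 CPM, and Rnu2 at 329.9 and 224 CPM against 347 and 323 CPM. Of 89 H/ACA genes tested, 83 were at 0 in both replicate 1 libraries. The H/ACA share of that replicate came from few genes, among them Snora28 (0.116 CPM in wild type and 615 CPM in the knockout, 1 insert) and Snora26 (249.6 CPM and 0.774 CPM).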

How the data were processed

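The authors deposited counts: each distinct read with its number of occurrences, neither trimmed nor aligned. Per the labels' protocols, Trizol RNA of 15 to 50 nt was gel-isolated and prepared by the Illumina procedure; the software is not given in the sources used here. Here reads were trimmed at the labelled 3′ adapter (12 matching bases, or at least 5 at the read end), and inserts of 15 nt or more were kept. Inserts of 18 nt or more were matched exactly, in sense, to GENCODE M21 transcripts (GRCm38), and those matching several classes formed a class of their own. Adapter-bearing hairpin reads of 18 to 26 nt were counted as miRNA arms, divided at the hairpin midpoint, and longer ones, or those without adapter, as precursor reads.

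edgeR 4.0.16 quasi-likelihood fits (R 4.3.3) covered all 16 libraries, with arms or genes of 20 or more reads in total and all inserts as library size. The approximate SE is log2 change over root F. Single values had exact permutation tests. On simulated data with low spread the arm fit recovered 98.2% of 57 arms changed 4-fold. With the common coefficient of variation of the data (2.10) given to every simulated arm, 0 arms were recovered even at 64-fold. The fit of the data let the spread differ by arm, so this does not give its power for the abundant arms that were called. Named arms were the 10 highest called in wild type, the 6 largest falls, the 10 highest in the knockout, those higher in both replicate numbers, list members, and miR-451a, miR-320, miR-484 and miR-877. In other classes the 3 highest genes were named, and for some classes fewer or others are given; hairpins, arms and genes beyond the rule were chosen after their values were seen. Members and lists were chosen with earlier results of these data known. Annotation names of list members (such as miR-92 for miR-92a) were added. Alternatives included TMM, DESeq2 1.42.0 and snoRNA scaling. The usual end of an arm is that most used in wild type (10 or more reads). The tests of precursor reads and ends were added after seeing the data. Python 3.11.15 with numpy 2.4.6, pandas 2.3.3 and matplotlib 3.10.9 was used.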

Additional observations from a re-analysis of the deposited data

How the results depend on the processing

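The 31 arm calls became 5 with TMM (1 lower, 4 higher), 12 with snoRNA and snRNA reads as library size, 52 with the replicate block and 92 with only the 4 libraries (89 lower, 3 higher). DESeq2 gave 27 (14 lower, 13 higher), of which 0 were among the 31. Leaving out 1 library gave 8 to 31, and the lone library left is then assumed to vary like the other groups. The labels do not pair the replicates, although each replicate number has its own read length. Deviations of same-numbered libraries correlated at 0.286 across arms and 0.547 across other RNAs, over only 2 pairs; the block left 0 calls for other RNAs and for precursors. For other RNAs, leaving out 1 library gave 0 to 3 calls. The median log2 change of the arms was -3.05 with TMM, 0 with DESeq2 and -7.34 with snoRNA scaling, against -6.95; that of other RNAs was 0 with each, against 0.76.

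Differences between group means kept their direction under the alternatives run for the shares of miRNA, C/D snoRNA, Y RNA, mitochondrial and precursor reads. For Y RNA this held for the mean only, since among inserts that are not miRNA the ratio was 0.929 in replicate 1 and 1.66 in replicate 2. Differences between group means in 21 to 23 nt inserts and in 5p reads past the usual 3′ end kept their direction too. Those that turned were H/ACA snoRNA with inserts of 15 to 36 nt only (-0.0105 percentage points), and snRNA (-0.0233 percentage points) and vault RNA (-0.0107 percentage points) among inserts that are not miRNA. On the log2 scale, DESeq2 turned miR-22-3p (0.86), miR-21a-5p (2.68), let-7c-5p (0.14), miR-31-5p (0.50), let-7i-5p (3.58), miR-125a-5p (3.18) and miR-320-3p (0.17), and TMM turned let-7i-5p (0.82) and miR-125a-5p (0.40). snoRNA scaling turned miR-181a-5p (-0.80), miR-532-5p (-0.84) and miR-320-5p (-0.78). Leaving out 1 library at a time gave a log2 change of -7.98 to 1.29 for miR-181a-5p, -3.23 to 11.68 for miR-20a-3p, -7.49 to 10.96 for miR-10b-5p and -6.14 to 11.15 for miR-350-5p, with the lowest value of each without knockout replicate 1. It gave -5.29 to 11.17 for miR-532-5p and -6.95 to 7.32 for miR-320-5p, lowest without knockout replicate 2, and -9.75 to 2.30 for miR-877-5p, highest without wild type replicate 2. The cause was not tested, beyond fewer libraries or another scale. Reads are not separate molecules, and in knockout replicate 1 few sequences carry many values.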
